A study of Homo sapiens with 2 samples.

Results

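Chromatin accessibility was examined at 9 genes that encode transcription factors of epithelial cells, out of 19970 protein-coding genes (autosomes and X). The genes were GRHL1, GRHL2, GRHL3, OVOL1, OVOL2, EHF, ELF3, KLF4 and KLF5, a fixed list of names that was drawn up with earlier results of these data known. For each gene, ATAC-seq peaks were collected in the gene body and within 50 kb of every annotated transcript start. This gave 67 of the 67868 peaks in the No gRNA library and 68 of the 68238 peaks in the All gRNA library, which fell on 75 separate loci. ATAC-seq marks open chromatin by where a transposase inserts into DNA.

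The grainyhead-like factors (GRHL1, GRHL2, GRHL3) are DNA-binding proteins that open chromatin at enhancers of epithelial genes, and the OVO-like zinc finger proteins (OVOL1, OVOL2) repress genes of the mesenchymal state, ZEB1 among them. EHF and ELF3 are ETS-family activators restricted largely to epithelia, and the Krüppel-like factors KLF4 and KLF5 act in the renewal and differentiation of epithelial layers. ZEB1, a repressor that drives the epithelial-to-mesenchymal transition, binds E-boxes with the letters CAGGTG or CACCTG on either strand, and ZEB1 and GRHL2 are known to repress each other in carcinoma cells.

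SUM159 is a triple-negative breast cancer cell line of the claudin-low, mesenchymal subtype. Both libraries came from SUM159 cells transduced with the lentiviral vector pLV-KRAB, which carries dCas9-KRAB, a catalytically dead Cas9 fused to a repressor domain. The No gRNA cells received the vector with no targeting guide (empty vector control) and the All gRNA cells received it with a pool of 4 guides to the ZEB1 promoter; per the methods, transduced cells were selected with puromycin. With 1 library for each condition there is no replicate error to test against and no p-value, and all differences below are between these libraries. Fewer cells with an open site and a less open site in every cell cannot be told apart in such bulk libraries.

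The summit pileup, the number of read ends stacked at the highest point of a peak, was recovered for every peak from the deposited values. The All gRNA library was shallower, at 0.743 times the No gRNA depth. At 1000 bp either side of the main ZEB1 start, the No gRNA list held 2 peaks with pileups of 25 and 27 and the All gRNA list held 0. All 8 mesenchymal marker genes (VIM and FN1 among them) had a promoter peak in both lists, while 7 of 9 epithelial markers did in No gRNA and 5 in All gRNA, and CLDN3 and ESRP1 had none in either. Within 1000 bp of the main start, only KRT18 of those 9 had a peak in both lists. Within that distance, mesenchymal markers thus had a peak and epithelial markers largely had none in both libraries. Promoter peaks as such were common, at 74.3% of all protein-coding genes in No gRNA and 73.9% in All gRNA. KRT8 alone had 5 promoter peaks in No gRNA and 6 in All gRNA, with highest pileups of 66 and 33, which belonged to different peaks. The No gRNA peak with 66 was paired with an All gRNA peak of 16. Its ratio of All gRNA to No gRNA after scaling by depth was 0.326 (counting interval 0.176 to 0.57). Of the 7 paired promoter peaks of the epithelial markers, this was the 1 called lower, past 2-fold with an interval that excludes 1.

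The peaks that the comparison turned on are given first as sequence, on the plus strand of hg38, 100 bases either side of the summit and trimmed at any annotated exon. Capitals mark the letters searched for: CAGGTG or CACCTG (E-box), AACCGGTT (GRHL), CCGTTA or TAACGG (OVOL), CCGGAA or TTCCGG (ETS), CACCC or GGGTG (KLF) and TGACTCA or TGAGTCA (AP-1), with both strands covered; no motif contains another, although neighbouring matches can share letters. GRHL3 intron, chr1:24290089-24290288, is the strongest peak called in 1 library only. GRHL1 downstream, chr2:10019345-10019544, and KLF5 downstream, chr13:73090638-73090837, are the shared peaks past 2-fold whose counting interval excludes 1. EHF downstream, chr11:34681326-34681525, KLF4 promoter, chr9:107489929-107490118, and KLF5 promoter, chr13:73058846-73059004, show a peak with an E-box, the uniquely paired promoter peak with the lowest ratio and the strongest promoter. OVOL1 upstream, chr11:65766630-65766829, is an All gRNA peak with an OVOL motif.
GRHL3 intron: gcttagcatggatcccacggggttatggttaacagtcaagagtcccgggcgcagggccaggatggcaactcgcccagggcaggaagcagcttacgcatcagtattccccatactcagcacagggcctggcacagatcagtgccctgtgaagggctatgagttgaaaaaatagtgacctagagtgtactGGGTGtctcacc
GRHL1 downstream: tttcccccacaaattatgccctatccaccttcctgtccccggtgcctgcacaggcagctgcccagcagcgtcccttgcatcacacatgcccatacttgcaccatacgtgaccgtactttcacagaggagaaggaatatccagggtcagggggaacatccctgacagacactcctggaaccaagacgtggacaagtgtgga
KLF5 downstream: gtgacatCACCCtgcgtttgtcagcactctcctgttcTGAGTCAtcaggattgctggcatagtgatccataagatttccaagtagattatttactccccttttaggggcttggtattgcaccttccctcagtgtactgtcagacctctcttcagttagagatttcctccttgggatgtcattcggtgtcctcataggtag
EHF downstream: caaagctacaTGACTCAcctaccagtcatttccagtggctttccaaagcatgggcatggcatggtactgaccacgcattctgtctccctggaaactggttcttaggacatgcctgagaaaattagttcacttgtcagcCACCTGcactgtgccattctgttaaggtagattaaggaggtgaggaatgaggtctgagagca
KLF4 promoter: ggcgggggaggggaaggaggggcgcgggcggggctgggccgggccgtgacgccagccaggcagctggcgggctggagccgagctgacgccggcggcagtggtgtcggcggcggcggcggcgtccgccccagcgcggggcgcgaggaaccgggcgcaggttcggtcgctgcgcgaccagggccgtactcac
KLF5 promoter: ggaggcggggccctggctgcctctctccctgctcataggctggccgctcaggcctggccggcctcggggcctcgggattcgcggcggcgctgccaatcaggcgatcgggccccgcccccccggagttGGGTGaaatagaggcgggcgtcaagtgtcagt
OVOL1 upstream: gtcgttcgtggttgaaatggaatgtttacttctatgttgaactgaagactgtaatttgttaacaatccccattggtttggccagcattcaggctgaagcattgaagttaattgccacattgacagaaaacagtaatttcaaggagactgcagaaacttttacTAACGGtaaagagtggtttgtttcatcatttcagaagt

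The GRHL3 intronic window held 1 KLF motif and no E-box, and the GRHL1 downstream window held none of the 6 motifs. KLF5 downstream held 1 AP-1 and 1 KLF motif. EHF downstream held 1 AP-1 motif and 1 E-box. The KLF4 and KLF5 promoter windows were rich in G and C, at 81.1% and 72.3%, and neither held an E-box.

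The first comparison asked which of the 9 genes had an open promoter in either library. A promoter peak is one within 4000 bp of any annotated start, the distance the study used. The No gRNA list held one for 7 of the 9 genes, beside 74.3% of all protein-coding genes, and the All gRNA list for 6, beside 73.9%. GRHL2 and OVOL1 had none in either list. OVOL2 had one in No gRNA only, beside 2.92% of all genes, and 0 of the 9 had one in All gRNA only, beside 2.56%. Within 1000 bp of the main start (that of the Ensembl canonical transcript) the count was 4 of 9 in both lists, for GRHL1, ELF3, KLF4 and KLF5, beside 62.9% of all genes in No gRNA and 61.8% in All gRNA. The remaining promoter peaks, at GRHL3, EHF and OVOL2, were not within 1000 bp of any start of the gene. Their No gRNA summits lay 1371 to 2670 bp from the nearest start.

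Covered promoter length, the bases under peaks within 4000 bp of the starts, summed to 4213 bp in No gRNA and 3499 bp in All gRNA over the 9 genes. It was shorter in All gRNA at GRHL1 (968 against 612 bp), EHF (1029 against 885 bp), KLF4 (925 against 697 bp) and OVOL2 (203 against 0 bp). It was longer at ELF3 (260 against 406 bp), GRHL3 (259 against 303 bp) and KLF5 (569 against 596 bp). These lengths were not scaled by depth, and the All gRNA library was the shallower one. In the whole regions of all protein-coding genes, the All gRNA covered length had a median of 89.9% of the No gRNA length (quartiles 78.1% and 103%).

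**Figure D1:**
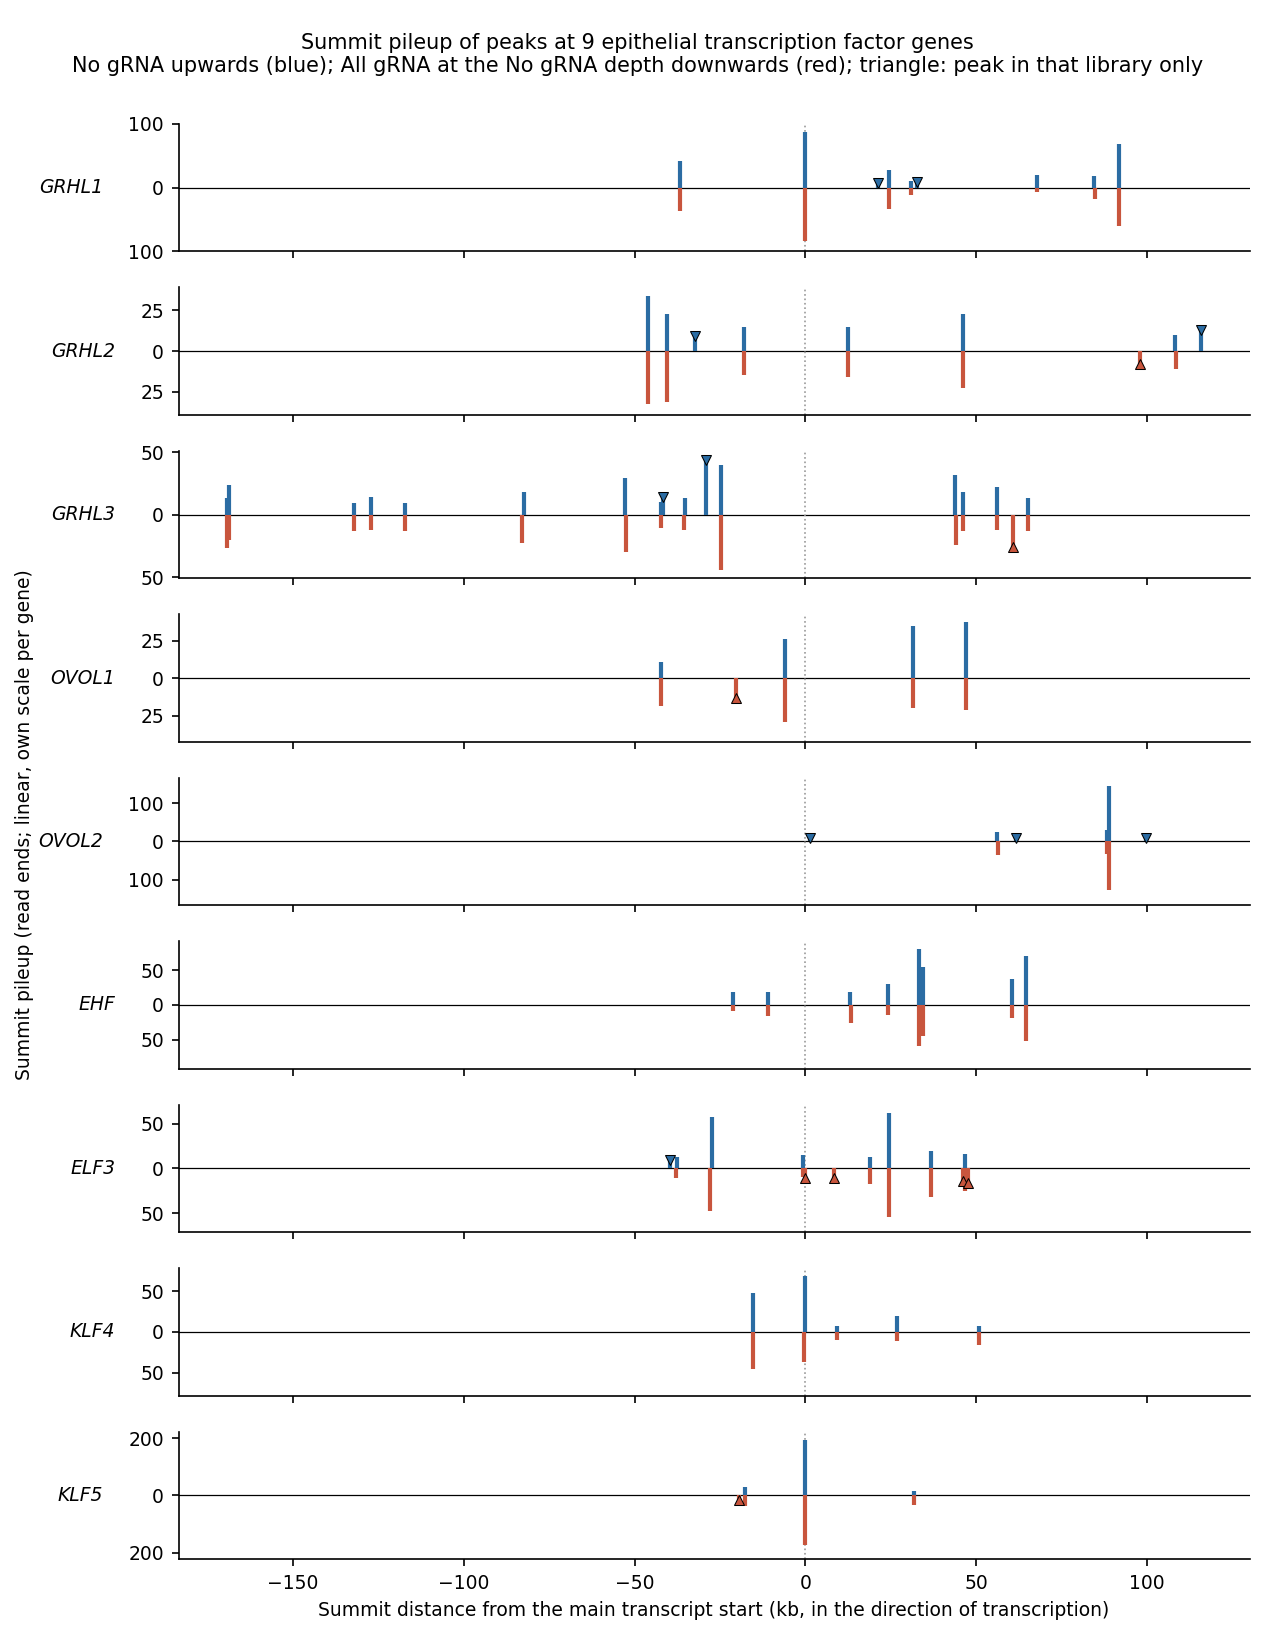
Each row shows 1 gene, with the distance of a summit from the main transcript start in kb on the x axis and its summit pileup on the y axis, No gRNA upwards and All gRNA, brought to the No gRNA depth, downwards; triangles mark the 18 loci called in 1 library only. In No gRNA, KLF5, GRHL1 and KLF4 have their strongest peak at the main start, while the rows of GRHL2, GRHL3, OVOL1 and EHF are empty there.

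The grainyhead-like genes differed in where their peaks lay. GRHL1 (ENSG00000134317.18, chromosome 2, 9951693 to 10002277, plus strand) had a promoter rich in G and C (79.7% in the RefSeq window) with a peak whose No gRNA summit lay 16 bp upstream of the main start, at 9951094 to 9952061. Its summit pileup was 87 without guides and 62 with them, so the ratio of All gRNA to No gRNA after scaling by depth was 0.959 (95% counting interval 0.681 to 1.34). The promoter was thus open at similar height in both libraries, within 1.5-fold as far as counting error goes. The strongest peak away from a promoter, 36801 bp upstream in an intron of TAF1B, had 41 and 27 and a ratio of 0.886 (0.524 to 1.48). The peak that stood out lay 67752 bp downstream of the main start, in intergenic sequence at 10019306 to 10019620. It was 24139 bp from the nearest GRHL1 start and 23404 bp from a start of KLF11. Its pileup was 20 without guides and 5 with them, the lowest All gRNA pileup of the pairs. The ratio of 0.336 (0.0987 to 0.924) was the lowest among the 9 genes. Against a background of 3.27% of all uniquely paired peaks that were lower by the same rule, the peak was the 1 lower call among the 54 paired peaks of the 9 genes (1.85%). The rule was past 2-fold with an interval that excludes 1. A further 2 weak intronic peaks of GRHL1, with pileups of 8 and 9, were called in No gRNA only.

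GRHL2 (ENSG00000083307.12, chromosome 8, 101492439 to 101669726, plus strand), the family member in a mutual repression with ZEB1, had no promoter peak in either library. The peak nearest to its main start lay 12381 bp inside the gene in No gRNA, with a pileup of 15 against 12 in All gRNA and a ratio of 1.08 (0.460 to 2.46). All 6 paired peaks of the locus had ratios between 0.95 and 1.35, the narrowest span among the genes with more than 3 pairs. Its strongest peak, 46017 bp upstream, had pileups of 34 and 24 and a ratio of 0.95 (0.539 to 1.65). An intronic peak 115705 bp inside the gene, with a pileup of 13, was called in No gRNA only, as was one 32389 bp upstream with a pileup of 9. The All gRNA list alone had an intronic peak with a pileup of 6. No new peak was therefore listed at a GRHL2 start in the library with guides, and a weak one under the call limit could not be seen at this depth.

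GRHL3 (ENSG00000158055.17, chromosome 1, 24199558 to 24364482, plus strand), which acts in epidermal barrier formation, had the most loci of the 9 genes, 17. None lay within 4000 bp of its main start at 24319357, and the nearest summit was 24773 bp upstream. The only promoter peak lay 117129 bp upstream of the main start and 2670 bp from a far upstream start. It had pileups of 9 and 10 and a ratio of 1.5 (0.546 to 4.16). An intronic No gRNA peak 29168 bp upstream of the main start, at 24290001 to 24290459, had a pileup of 44 and no counterpart in All gRNA. At the All gRNA depth it would have 32.7 (23.8 to 43.9), against the lowest pileup that could be called there, 10. Of the 16746 No gRNA only peaks, 91 had a higher pileup. A neighbouring intronic peak, 24773 bp upstream, was shared, with pileups of 40 and 33 and a ratio of 1.11 (0.678 to 1.81). The converse case lay past the 3′ end of the gene, 319 bp from a start of STPG1, where an All gRNA peak at 24380018 to 24380275 had a pileup of 19 and no No gRNA counterpart. It would reach 25.6 (15.4 to 39.9) at the No gRNA depth, against a lowest callable pileup of 7, and 376 of the 16211 All gRNA only peaks were higher. One more intronic peak, 41707 bp upstream with a pileup of 14, was called in No gRNA only. A peak 169225 bp upstream, 6992 bp from a start of IL22RA1, had pileups of 13 and 20 and a ratio of 2.07 whose interval reached 1 (0.98 to 4.53).

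The OVO-like genes had little open chromatin at their own starts. OVOL1 (ENSG00000172818.10, chromosome 11, 65787063 to 65797214, plus strand) had no peak in its gene body or promoter in either library. Its nearest summit, 6071 bp upstream, lay 16 bp from a start of AP5B1, with pileups of 26 and 22 and a ratio of 1.14 (0.615 to 2.09). Around this summit both lists held an E-box and an OVOL motif. An intergenic peak 31363 bp downstream of the OVOL1 start went from 35 to 15, a ratio of 0.577 (0.293 to 1.08), and the peak at the SNX32 start, 46911 bp downstream, from 37 to 16, a ratio of 0.582 (0.302 to 1.07). Both intervals hold 1. An upstream peak 20333 bp from the start, at 65766620 to 65766857, was called with a pileup of 10 in the library with guides and not in the other.

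OVOL2 (ENSG00000125850.11, chromosome 20, 17956979 to 18059188, minus strand) had 1 weak promoter peak, 1371 bp inside the gene at 18056466 to 18056668, called in No gRNA only with a pileup of 8. At the All gRNA depth it would have 5.94 (2.57 to 11.7), against a lowest callable pileup of 4, so the interval reaches below what the All gRNA library could show. A shared intronic peak 56201 bp inside the gene had pileups of 25 and 26 and a ratio of 1.40 (0.777 to 2.53). The strong peaks of the annotated gene body belonged to the promoter of MGME1, with pileups of 146 and 94 and a ratio of 0.866 (0.661 to 1.13). A further 2 intronic No gRNA peaks, with pileups of 9 and 8, had no counterpart. Bases under peaks in the whole OVOL2 region came to 1068 bp in All gRNA against 1953 bp in No gRNA, or 54.7%, the lowest share of the 9 genes, beside a median of 89.9% over all protein-coding genes (quartiles 78.1% and 103%).

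Of the ETS-family genes, EHF (ENSG00000135373.13, chromosome 11, 34621093 to 34663288, plus strand) had no peak within 4000 bp of its main start, and the nearest summit was 11007 bp upstream. Its promoter peaks lay 13088 bp and 24182 bp inside the gene, with No gRNA summits 1717 bp and 2648 bp from the nearest EHF start. The former had pileups of 18 and 19 and a ratio of 1.42 (0.706 to 2.87). The latter had 30 in No gRNA and was split in All gRNA, with a highest pileup of 11 and a ratio of 0.493 (0.223 to 1.01). The strongest EHF peak, intronic, 33165 bp inside the gene at 34653873 to 34654475, had pileups of 80 and 44 and a ratio of 0.740 (0.500 to 1.08). An intergenic peak 60333 bp downstream of the start, at 34681231 to 34681618, had 37 and 14 and a ratio of 0.509 (0.254 to 0.964), below 1 but not past 2-fold; its window holds the E-box and the AP-1 motif shown above. A peak 21259 bp upstream had 19 and 6, a ratio of 0.425 (0.139 to 1.11). Of the 7 paired EHF peaks, 6 had a ratio under 1, beside 58.1% of all pairs. Their median log2 ratio was −0.43, beside −0.11 over all pairs. Only the interval of the peak 60333 bp downstream excluded 1.

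ELF3 (ENSG00000163435.16, chromosome 1, 202007945 to 202017183, plus strand), known as an early responder to epithelial damage, had 4 All gRNA peaks of 11 with no No gRNA counterpart, beside 23.8% of all All gRNA peaks, and for 1 of the 4 the lower bound of the counting interval was above the call limit. At its main start, an All gRNA peak at 202010460 to 202010665, in sequence annotated as UTR, had a pileup of 8, and no No gRNA peak overlapped it. At the No gRNA depth it would have 10.8 (4.65 to 21.2), against a lowest callable pileup of 5, so the counting interval reaches just below the call limit. A shared peak 833 bp upstream had pileups of 15 and 7 and a ratio of 0.628 (0.217 to 1.64). The called summit nearest to the start lay at −833 bp in No gRNA and at −16 bp in All gRNA, at low pileups in both. Counting error does not exclude a No gRNA signal at −16 bp under the call limit, and the peak at −833 bp was called in both lists. The other All gRNA only peaks were downstream, 8390, 46156 and 47704 bp from the start, with pileups of 8, 10 and 12. Of the 8 No gRNA peaks of ELF3, 1 had no All gRNA counterpart, beside 24.7% of all No gRNA peaks. This peak lay 39706 bp upstream, with a pileup of 9. At the All gRNA depth it would have 6.69 (3.06 to 12.7), against a lowest callable pileup of 4. The strongest peak away from other genes, 24505 bp downstream, had 62 and 40 and a ratio of 0.868 (0.568 to 1.31). Peaks at 36734 bp and 46626 bp downstream had ratios of 1.70 (0.892 to 3.28) and 1.6 (0.778 to 3.32). Bases under peaks in the ELF3 region came to 125% of the No gRNA length, the highest of the 9 genes. Peak density, in peaks per 100 kb, placed the region at percentile 88.3 of all genes in No gRNA and 97.8 in All gRNA.

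Promoter sequences in RefSeq (GRCh38.p14, 250 bases before to 50 after the start) were found for 6 of the 9 genes, in 9 entries; GRHL2, OVOL1 and OVOL2 had no entry. An E-box was in 2 entries, 1 of GRHL3 and the only one of ELF3, beside 20.6% of all 34961 promoters. The sites are shown with 10 bases either side, the E-box in capitals, on the plus strand, which is the strand of both genes: ELF3 120 bases before the start (chr1:202010457-202010482), GRHL3 21 bases before (chr1:24319326-24319351) and GRHL3 at base 10 after it (chr1:24319356-24319381).
ELF3 before the start: atatgcaaatCACCTGgggccaggag
GRHL3 before the start: ttaacagctgCACCTGttgaggtata
GRHL3 after the start: cagtcgccggCACCTGtacctgtagc

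The ELF3 site lay near the edge of the All gRNA only peak at the main start and in no No gRNA peak. Within 100 bp of its summit that peak held none of the 6 motifs. Conversely, the OVOL2 promoter peak called in No gRNA only held an E-box within 100 bp of its summit. Both GRHL3 sites lay in no peak of either list.

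Of the Krüppel-like genes, KLF4 (ENSG00000136826.15, chromosome 9, 107484852 to 107490482, minus strand) had the lowest ratio among the 6 paired promoter peaks. Its peak, whose No gRNA summit lay 260 bp upstream of the main start, spanned 107489535 to 107490459 in No gRNA and 107489790 to 107490486 in All gRNA. The pileup was 68 without guides and 27 with them, a ratio of 0.534 (0.329 to 0.846), which excludes 1 but is not past 2-fold. Among genes with a promoter peak, its strongest pileup stood at percentile 54.6 in No gRNA and 34.1 in All gRNA. The distal KLF4 peak 15283 bp upstream, in contrast, had 48 and 34 and a ratio of 0.953 (0.596 to 1.51). A weak peak 50864 bp downstream had 7 and 12, a ratio of 2.31 with an interval that holds 1 (0.837 to 6.92).

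KLF5 (ENSG00000102554.14, chromosome 13, 73054976 to 73077541, plus strand) had the strongest promoter peak of the 9 genes, at percentile 93.9 of genes with a promoter peak in No gRNA and 94.6 in All gRNA. Its summit lay 59 bp upstream of the main start in No gRNA, with pileups of 194 and 130 and a ratio of 0.902 (0.716 to 1.13). A distal peak 17587 bp upstream had 29 and 28 and a ratio of 1.3 (0.745 to 2.26). The intergenic peak 31727 bp downstream of the start, at 73090340 to 73090898, had 15 without guides and 26 with them, a ratio of 2.33 (1.19 to 4.74). It was the 1 higher call among the 54 paired peaks (1.85%), beside 2.44% of all uniquely paired peaks called higher. With the authors' fold in place of the scaled pileup its ratio was 1.54 and the call was lost. An upstream peak 19561 bp from the start, at 73039330 to 73039558, was found with guides only, with a pileup of 12, or 16.1 (8.34 to 28.2) at the No gRNA depth, against a lowest callable pileup of 8. KLF5 thus had a promoter of similar height in both libraries, 1 distal peak called higher in All gRNA by pileup and 1 found there only.

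The next comparison took all loci of the 9 genes together. Of the 75 loci, 57 were shared by at least 1 bp, 10 had a peak without guides only and 8 with guides only. The former were 14.9% of the No gRNA peaks of these genes, beside 24.7% over the whole list. The latter were 11.8% of their All gRNA peaks, beside 23.8%. By position, 9 loci were within 4000 bp of a start of the gene itself (7 shared, 1 in each library only). A further 8 were within 1000 bp, a narrower window, of a start of another protein-coding gene (7 shared, 1 in All gRNA only). In the own promoter window, 1 of 8 No gRNA peaks had no counterpart (12.5%), beside 16.9% over all protein-coding genes. Of the All gRNA peaks there, 1 of 9 had none (11.1%), beside 11.6%. Near starts of other genes these were 0 of 7 No gRNA peaks, beside 13.7%, and 1 of 8 All gRNA peaks (12.5%), beside 8.08%. In gene bodies there were 22 loci, of which 14 were shared. Here 7 of 21 No gRNA peaks had no counterpart (33.3%), beside 28.8% of No gRNA gene body peaks of all protein-coding genes by the same rule, and 1 of 16 All gRNA peaks (6.25%), beside 28.6%. Of the 36 distal loci, 29 were shared. Here 2 of 31 No gRNA peaks had no counterpart (6.45%), beside 28.4%, and 5 of 35 All gRNA peaks (14.3%), beside 26.4%. These are small counts of peaks from 1 library each. Peaks in 1 library only had median pileups of 9 (No gRNA) and 10 (All gRNA), with the GRHL3 intronic peak (44) and the peak at the STPG1 start (19) the highest of these 18, library by library, beside medians of 11 and 8 over all such peaks. Scaled to the depth of the other library, all 18 exceeded the lowest pileup that could be called there, and for 7 the lower bound of the counting interval did too. The All gRNA peaks could hardly fail the former, since their pileups and backgrounds were scaled up to a deeper library. The count of 18 therefore carries little information, and the lower bound is the stricter reading. A peak also has to keep a width of 200 bp above the threshold, which the pileup does not show.

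For 54 pairs, in which each peak overlapped a single peak of the other library, 30 ratios were under 1 and 24 over 1, and the median log2 ratio was −0.05 (quartiles −0.29 and 0.36). Over all 48041 such pairs the median was −0.11 (−0.45 and 0.27), and 58.1% were under 1, beside 55.6% at the 9 genes. The interval held 1 for 50 of the 54. It lay below 1 for 3, the GRHL1 downstream peak, the KLF4 promoter and the EHF downstream peak (5.56%, beside 8.85% of all pairs), and above 1 for the KLF5 downstream peak (1.85%, beside 3.42%). By position the median log2 ratio was −0.10 at the 6 paired promoter peaks, −0.17 at 7 promoters of other genes, 0.11 at 13 gene body peaks and −0.07 at 28 distal peaks. By family it was −0.01 for the GRHL genes (25 pairs), 0.16 for OVOL (7 pairs), −0.29 for EHF and ELF3 (14 pairs) and 0.15 for KLF4 and KLF5 (8 pairs). The intervals were wide: 13 of the 54 lay between 0.5 and 2, and 11 reached past both bounds, so outside those 13 a 2-fold difference in at least 1 direction was not excluded by counting error.

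**Figure D2:**
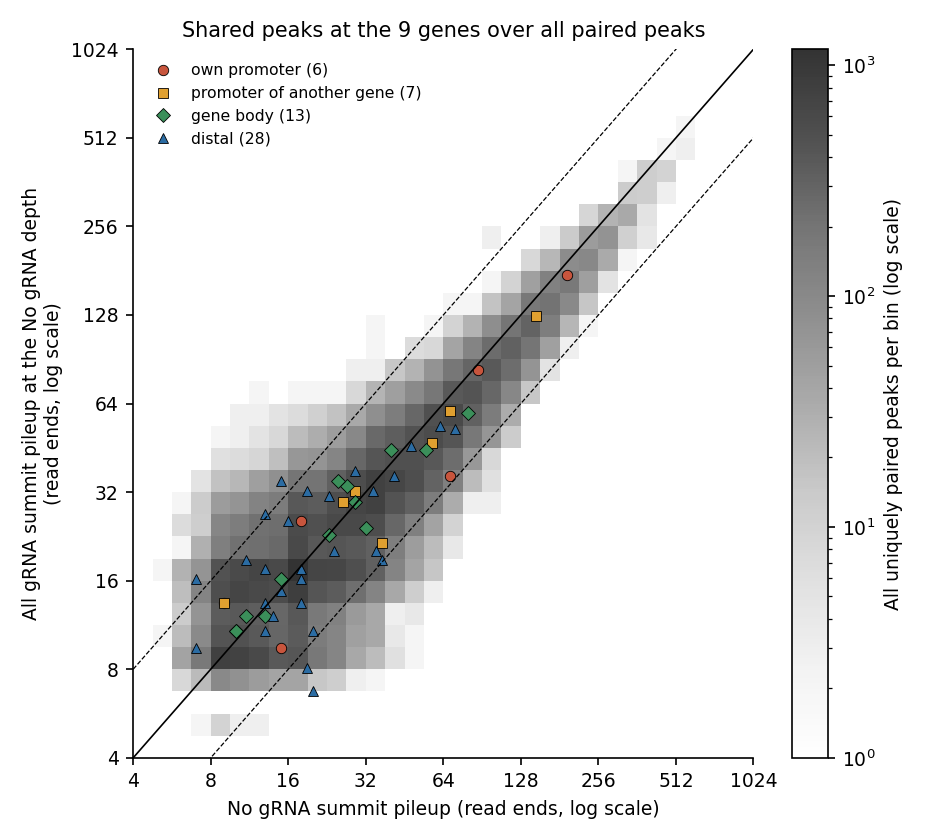
Summit pileups of the 54 paired peaks, No gRNA on the x axis and All gRNA at the No gRNA depth on the y axis (both log scale), are drawn by position over the 48041 pairs of all genes (grey, number per bin); the solid line is equality and the dashed lines are 2-fold. The peaks of the 9 genes lie within the grey cloud, with pileups from 7 to 194 in No gRNA.

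**Figure D3:**
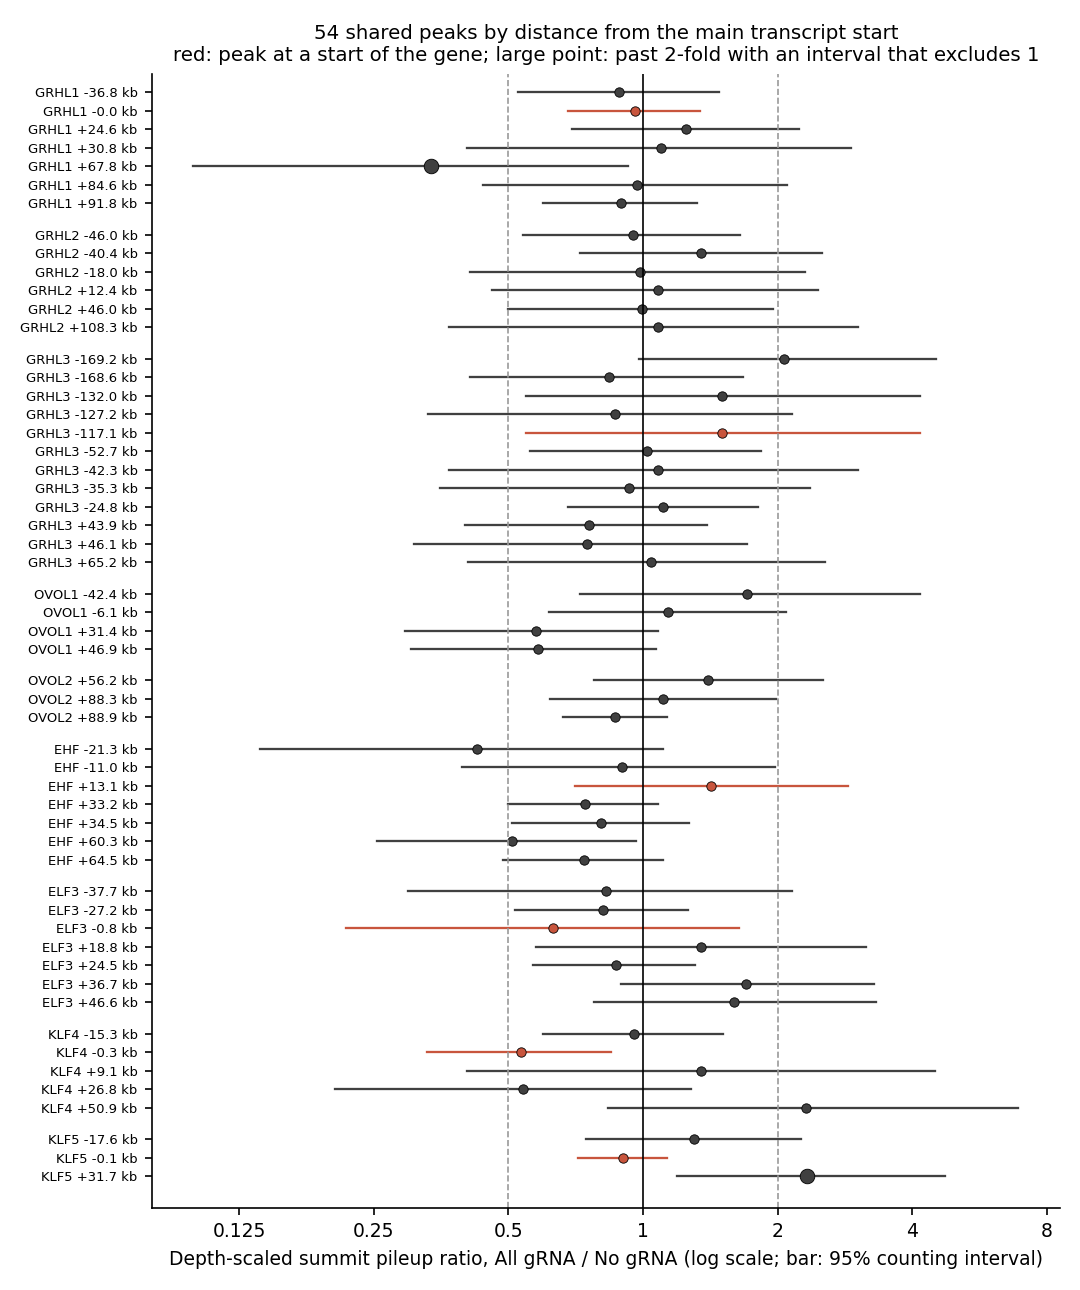
The depth-scaled ratio of each of the 54 pairs is shown on a log axis with its 95% counting interval, in order of distance from the main start within each gene. The large points are GRHL1 at +67.8 kb (0.336) and KLF5 at +31.7 kb (2.33), and of the promoters in red the interval lies below 1 for KLF4.

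Sequence at the summits was described last. An E-box lay within 100 bp of the summit in 11 of 67 No gRNA peaks of the 9 genes (16.4%), beside 11.6% of all peaks, and in 14 of 68 All gRNA peaks (20.6%), beside 13.1%. Of the 17 loci concerned, which came from 8 of the genes, the E-box was near the summit in both lists at 8, in No gRNA alone at 3 and in All gRNA alone at 6; a shift of the summit between the lists can move a motif across the limit of 100 bp. The AP-1 motif was in 25.4% and 22.1% of the peaks of the 9 genes, beside 23.5% and 24.3% of all peaks. The KLF motif was in 38.8% and 38.2%, beside 41.0% and 41.1%. The ETS motif was in 5.97% and 5.88%, beside 6.72% and 6.57%, and the OVOL motif in 1 and 2 peaks, beside 1.43% and 1.5% of all. No peak of the 9 genes held the GRHL motif, which 0.0693% and 0.0615% of all peaks did. A match of letters is not evidence of binding, and these shares are descriptions over few peaks.

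Other gene lists were read by the same promoter rule. The 5 EMT transcription factors ZEB2, SNAI1, SNAI2, TWIST1 and TWIST2 all had promoter peaks in both lists, all 5 within 1000 bp of the main start. Of their 9 paired promoter peaks, 8 had a ratio under 1, beside 58.1% of all pairs. The median log2 ratio was −0.39, and 0 were past the call. ZEB2 gave 6 of these 9 pairs, TWIST2, SNAI2 and SNAI1 gave 1 each and TWIST1 gave 0. These values thus mostly describe 1 gene. Over all pairs, sorted by pileup into 5 classes, the median ran from 0.07 in the weakest to −0.23 in the strongest class. Of 17 family relatives, 15 had a promoter peak in No gRNA and 16 in All gRNA; SPDEF had none, TFCP2L1 had one in All gRNA only, and KLF13 (0.449, 0.248 to 0.777) and KLF2 (0.499, 0.295 to 0.817) each had a peak called lower, 2 of the 26 paired promoter peaks of these relatives, beside the 3.27% of all pairs called lower. Of 8 epithelial genes of the kind that GRHL, OVOL and ETS-family factors act on, 5 had a No gRNA promoter peak and 3 an All gRNA one, 0 of them within 1000 bp of the main start. CDH1 and CLDN4 had one in No gRNA only, with pileups of 7 and 12. These were 2 of the 8 genes, beside 2.92% of all genes, and 0 had one in All gRNA only, beside 2.56%. Whether the All gRNA depth could have shown these weak peaks was not tested. CLDN3, ESRP1 and RAB25 had none in either list.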

How the data were processed

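Open chromatin was measured by ATAC-seq in 2 libraries of SUM159 cells, 1 per group. Per the labels and the study's methods, the authors used fastp for trimming, Bowtie2 for mapping (hg38), removed mitochondrial, excluded and duplicate reads, and ran MACS2 on each library without a control; versions are not given in the sources used here. The deposited lists (74757 No gRNA and 75217 All gRNA peaks) hold a fold enrichment over background (a ratio), −log10 p and −log10 q values of the authors' caller, and a score that was not used.

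Peaks on chromosomes 1 to 22 and X were kept. Library totals are not in the lists, so the summit pileup and local background were solved from fold and −log10 p under the Poisson model of MACS2 (whole pileups for 100% of peaks, relative tolerance 0.0001, tested on simulated data). The lowest backgrounds, 0.652 and 0.484, gave the depth ratio of 0.743 and depths of 1.17e+07 and 8.72e+06 read ends for the stated 150 bp extension, or 8.8e+06 and 6.54e+06 for the 200 bp that the lists show. Intervals are exact (Clopper-Pearson, 95%) and cover counting error only, since read ends are not independent molecules. Genes came from GENCODE release 44 on hg38, whose chromosome lengths contained all peaks. By rule, all 9 genes were named with their strongest promoter and other peaks, calls past 2-fold with an interval excluding 1, and peaks in 1 library only; further peaks were named after their values were seen. The genes and lists were chosen with earlier results of these data known. A further list of epithelial factors is not reported here. Alternatives changed the overlap, threshold, window, promoter width, scaling and fold. Python 3.11.15, pandas 2.3.3, numpy 2.4.6, scipy 1.17.1 and matplotlib 3.10.9 were used.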

Additional observations from a re-analysis of the deposited data

How the results depend on the processing

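No paired analysis was possible because there was a single library, with no replicate number, on each side. Among 67 recomputed values, 50 stayed close to the reported one (a count, length or depth within 1.5 times, a median within its spread, a single ratio inside its counting interval) and 17 moved. All alternatives were planned, and unless stated the cause was not tested. Requiring 50% overlap of both peaks gave 17 loci without guides only and 18 with guides only. Summits within 150 bp gave 13 of the latter, and a gap of up to 1000 bp gave 5. A −log10 q of 10 or more for counted peaks left 3 and 1, fewer by construction. Windows of 20 kb left 33 shared and 4 All gRNA only loci, and windows of 100 kb gave 19 and 15 loci of a single library. With promoters of 1000 bp, 4 genes had a No gRNA promoter peak, and the covered lengths were 2722 and 2311 bp.

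Scaling by the median ratio of all pairs (0.690 in place of 0.743) shifts log2 ratios up by 0.11, so the median at the 54 pairs became 0.06. It gave 2 higher calls, adding the GRHL3 peak 169225 bp upstream (2.23, 1.06 to 4.88), and the GRHL1 downstream peak was still called (0.363, 0.106 to 0.995). The EHF downstream interval then held 1 (0.549, 0.274 to 1.04). With a fold of 1.5, 3 peaks were lower, adding the KLF4 promoter and the EHF downstream peak. The authors' fold with no scaling gave 0 higher and 2 lower peaks. These were the GRHL1 downstream peak (0.408) and the EHF peak 21259 bp upstream (0.448). The counting interval of the latter holds 1, so it was counted on the fold alone. The KLF5 downstream peak had 1.54 there, a lost call although inside its interval. With 1 library per group, the effect of the guides and the spread between libraries cannot be told apart.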
